A study of Mus musculus with 13 samples.

Results

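Secreted WNT antagonists are extracellular proteins that limit WNT signalling, and 7 of their genes were followed here: Sfrp1, Sfrp2, Frzb, Dkk1, Dkk2, Dkk3 and Wif1. They were chosen by name, as the rows of the limb bud table that carry those symbols, with earlier results of these data known. All 7 were among the 12880 genes listed, and all 7 passed the filter on low values. The libraries were RNA-seq of mouse embryonic limb buds, 13 in all, in 4 groups that the labels call biological replicates. Per the header of the deposited table, the 3 controls at embryonic stage E11.5 were Sox9fl/- and the 4 mutants of that stage, called Sox9null, were Sox9-/-. At E12.5 the 3 controls were Sox9fl/fl and the 3 mutants, called Sox9cKO, were Sox9fl/flPrx1CreER. Prx1CreER is a Cre recombinase whose activity depends on an inducer and whose promoter is active in limb bud mesenchyme. The sources used here do not give the inducer, its timing or how the Sox9-/- embryos were made. The control genotype and the mutant allele both differed between the stages, so stage cannot be told apart from genotype in either stage comparison or in the difference of the mutant effects. The study asked what Sox9, which encodes a transcription factor of cartilage formation, is needed for when limb bud cells begin chondrogenesis.

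WNT ligands signal through Frizzled receptors and the co-receptors LRP5 and LRP6, which stabilise beta-catenin and let TCF and LEF factors activate targets such as Axin2. The secreted frizzled-related proteins SFRP1, SFRP2 and FRZB carry a domain related to the ligand-binding part of Frizzled and can bind WNT ligands, as WIF1 does through a domain of its own. Dickkopf proteins work differently: DKK1 and DKK2 bind LRP5 and LRP6, in concert with Kremen receptors, while DKK3 is a divergent member whose role in this pathway is less clear. In the limb bud, beta-catenin signalling opposes cartilage formation, and Frzb is known as a gene of early cartilage condensations.

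The 5′ flanking sequences of Sfrp2 and Dkk2 are shown because these were, of the 7 genes, the one with the lowest adjusted p in each mutant comparison and the one with the largest stage difference. They are the 250 bases before the RefSeq start (GRCm38.p6), written 5′ to 3′ along the gene's own strand, with capitals marking a match to a searched motif. For Sfrp2 the window is chr3:83766071-83766320 on the plus strand, and for Dkk2 chr3:132085042-132085291 on the plus strand. For Dkk1 only the stretch that holds its matches is given, chr19:30549589-30549613 on the minus strand. It lies before the RefSeq start but inside the gene as GENCODE annotates it (30545863 to 30549665).
Sfrp2: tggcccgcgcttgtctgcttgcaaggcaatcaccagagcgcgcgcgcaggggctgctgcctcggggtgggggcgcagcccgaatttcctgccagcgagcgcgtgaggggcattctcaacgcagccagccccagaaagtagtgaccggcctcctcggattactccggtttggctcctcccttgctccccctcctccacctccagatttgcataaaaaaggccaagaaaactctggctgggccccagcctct
Dkk2: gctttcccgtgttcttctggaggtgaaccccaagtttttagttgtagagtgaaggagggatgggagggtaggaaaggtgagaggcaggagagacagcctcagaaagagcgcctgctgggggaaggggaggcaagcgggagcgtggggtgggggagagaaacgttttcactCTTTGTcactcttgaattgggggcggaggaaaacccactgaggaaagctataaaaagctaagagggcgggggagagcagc
Dkk1: CTTTGAAatcccatcccggCTTTGT
The search covered both strands for the SOX motif AACAAT, the SOX motif ACAAAG, the SOX motif ACAATG, the TCF and LEF motif ATCAAAG and the TCF and LEF motif TTCAAAG. No match overlapped another in these windows. Dkk2 held ACAAAG as its reverse complement, 80 to 75 bases before the start. Dkk1 held ACAAAG as its reverse complement 98 to 93 bases before the start, and TTCAAAG as its reverse complement 117 to 111 bases before it. No motif was found in the windows of Sfrp2, Frzb and Wif1. The windows of Dkk1, Frzb and Wif1 run into these genes as GENCODE annotates them, since the RefSeq starts used here differ. The RefSeq table matched 5 of the 7 genes, with no entry for Sfrp1 or Dkk3. Over all 32851 windows of this length, 16.5% held ACAAAG and 4.46% held TTCAAAG, while 29.6% held any of the SOX motifs and 7.48% either TCF and LEF motif. These matches describe letters in a window and do not show binding.

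Sox9 RNA ran from 35.8 to 49.3 normalized RPKM (a read count per length of gene and per depth of library) in E11.5 controls and from 20.6 to 25.7 in Sox9null, a log2 difference of -0.76 (limma adjusted p = 0.036). At E12.5 it ran from 35.2 to 37.5 in controls and from 28.7 to 35.1 in Sox9cKO, a log2 difference of -0.18 that did not pass (limma adjusted p = 1). Col2a1, which encodes the main cartilage collagen, averaged 60.8, 32.6, 70.6 and 46.1 RPKM in E11.5 controls, Sox9null, E12.5 controls and Sox9cKO; its mutant differences of -0.89 and -0.61 did not pass (limma adjusted p = 0.0537 and 0.186). Whether the reads counted for Sox9 lie inside or outside the deleted part is not stated. Limb mesenchyme markers were present in all groups: Prrx1, a homeobox gene of limb mesenchyme, averaged 45.4, 44.3, 38.5 and 41.1 RPKM in E11.5 controls, Sox9null, E12.5 controls and Sox9cKO, and 9 of 10 markers were listed, Tbx5 not among them. On all genes, E11.5 controls 1 and 3 clustered with Sox9null 3 and 4 (a library set of 4), and control 2 with Sox9null 1 and 2 (a library set of 3); what the sets are is not stated. Y-linked genes were expressed in 1 of 3 E11.5 controls, 1 of 4 Sox9null, 3 of 3 E12.5 controls and 1 of 3 Sox9cKO libraries. In bulk samples, fewer cells of a type and less RNA per cell cannot be told apart. Sequencing depth per library is unknown, so no counting interval can be given.

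The antagonists made up a mixed pool in which the SFRP family was the largest part. In E11.5 controls the order of mean RPKM was Sfrp2 46.3, Frzb 44.1, Sfrp1 24.1, Wif1 21.9, Dkk2 13.2, Dkk3 7.65 and Dkk1 7.59. Their summed RPKM was 165 ± 7.69 (SD, n = 3) in E11.5 controls, 151 ± 8.80 (SD, n = 4) in Sox9null, 194 ± 5.46 (SD, n = 3) in E12.5 controls and 189 ± 7.32 (SD, n = 3) in Sox9cKO. The make-up of the sum differed more than its size at E12.5. Frzb gave 16.1% ± 4.28 (SD, n = 3) of the E12.5 control sum and 22.9% ± 1.85 (SD, n = 3) of the Sox9cKO sum, while Sfrp2 gave 31.8% ± 1.92 and 25.4% ± 1.28 of the same sums.

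**Figure D1:**
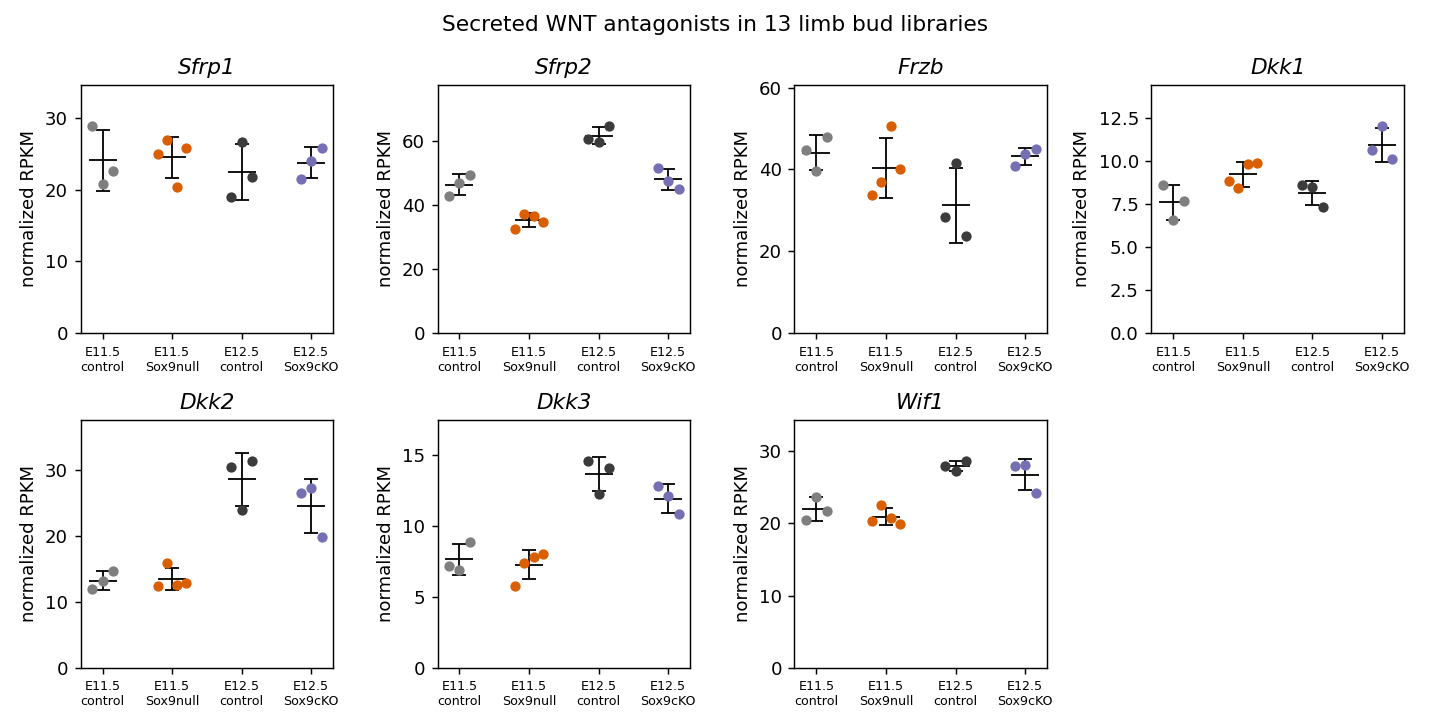
Normalized RPKM of each antagonist gene on the vertical axis, with the 4 groups side by side. Points are libraries, and the bar and whiskers are the mean and SD. Sfrp2 (35.2 and 48.0 in mutants, 46.3 and 61.6 in controls) separates each mutant group from its control, Dkk2, Dkk3 and Wif1 separate the stages in controls, and Sfrp1 overlaps across all groups.

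**Figure D2:**
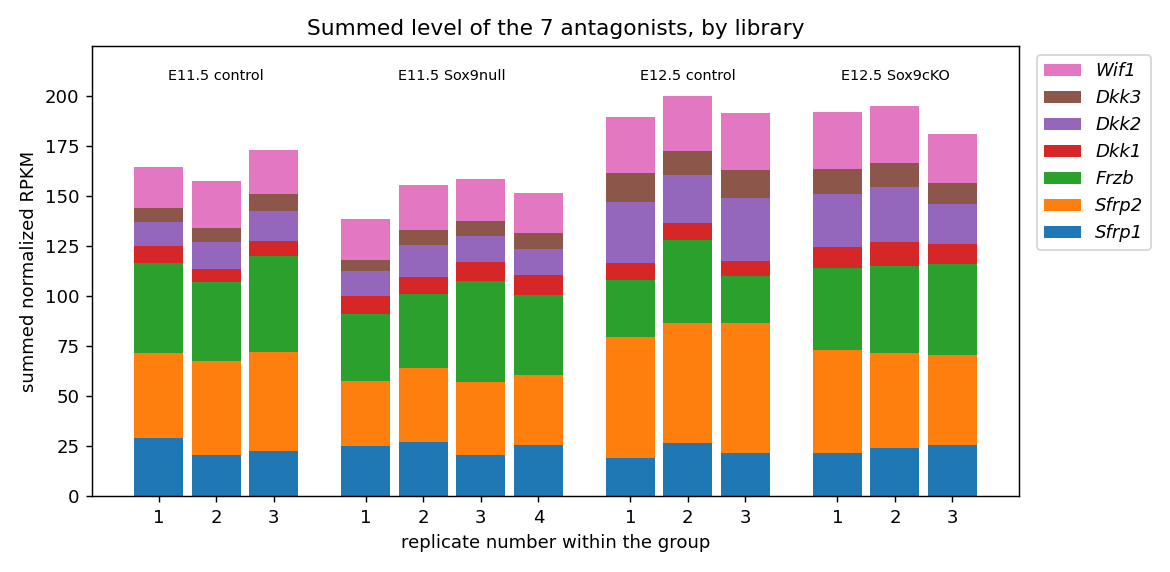
Summed normalized RPKM of the 7 genes in each of the 13 libraries, stacked by gene. The E12.5 columns (180.8 to 199.9) stand above all E11.5 columns (138.4 to 172.9), and the Frzb segment is smallest in E12.5 controls 1 and 3.

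From E11.5 to E12.5 in controls, Dkk2, Dkk3, Sfrp2 and Wif1 rose, and no antagonist fell at an adjusted p under 0.05 in limma. The background of that comparison was high: 21.7% of all 12880 genes were called, 16.5% higher and 5.19% lower. The median log2 difference of the 7 genes was 0.34, against 0.06 over all genes. The mutants of the same stages also had 4 of 7 higher and 0 lower, by the same test, where 19.7% of all genes were called, 14.5% higher and 5.23% lower. Dkk2, Dkk3, Sfrp2 and Wif1 were the 4 in both. In controls these 4 of 7 had all E12.5 values above all E11.5 values, as did 32.6% of all genes; in mutants 5 of 7 did (the same 4 and Dkk1), against 23.7%.

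Dkk2 (ENSMUSG00000028031, mm10 chromosome 3, 132085292 to 132180304), a Dickkopf that can either oppose or weakly activate WNT signalling through LRP6, had the largest rise. Its RPKM was 11.9, 13.1 and 14.6 in E11.5 controls and 30.5, 23.9 and 31.4 in E12.5 controls. In Sox9null it was 12.4, 15.9, 12.6 and 12.9, and in Sox9cKO 26.4, 27.3 and 19.9. Every E12.5 library was above every E11.5 library, in controls and mutants alike. The log2 difference was 1.05 ± 0.14 (SE) in controls (limma adjusted p = 0.000819) and 0.82 ± 0.13 in mutants (adjusted p = 0.00321), all on the log2(RPKM + 1) scale, which understates the change of low genes. Control and Sox9cKO values overlapped at E12.5, with a log2 difference of -0.22 (95% interval -0.52 to 0.09) that became -0.08 without Sox9cKO 3 and -0.33 without E12.5 control 2.

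Dkk3 (ENSMUSG00000030772, chromosome 7, 112116017 to 112159057), the divergent Dickkopf, followed with lower levels. It stood at 7.17, 6.89 and 8.90 RPKM in E11.5 controls and at 14.6, 12.3 and 14.1 in E12.5 controls. Sox9null libraries had 5.79, 7.40, 7.86 and 8.05, and Sox9cKO libraries 12.8, 12.1 and 10.8. The stages did not overlap. The log2 difference was 0.77 ± 0.12 (SE) in controls (limma adjusted p = 0.00179) and 0.65 ± 0.11 in mutants (adjusted p = 0.0049).

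Wif1 (ENSMUSG00000020218, chromosome 10, 121033960 to 121100650), the WNT inhibitory factor that binds ligands, had a smaller rise. It was at 20.4, 23.7 and 21.7 RPKM in E11.5 controls and at 28.0, 27.3 and 28.7 in E12.5 controls. In Sox9null it was at 20.3, 22.6, 20.8 and 19.99, and in Sox9cKO at 28.0, 28.1 and 24.2. Again no E11.5 value reached an E12.5 value. The log2 difference was 0.34 ± 0.07 (SE) in controls (limma adjusted p = 0.0066) and 0.34 ± 0.07 in mutants (adjusted p = 0.00741). Between mutant and control, Wif1 differed by -0.07 (95% interval -0.21 to 0.08) at E11.5 and by -0.06 (-0.22 to 0.09) at E12.5.

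The summed RPKM of all 10 marker lists of limb bud tissues separated the stages in controls without overlap, 8 of them higher at E12.5. The summed RPKM of 8 of 10 muscle markers lay between 47.0 and 77.3 at E11.5 and between 161.8 and 204.9 at E12.5. Within it, the means of Pax3 (4.4 and then 1.74 RPKM) and Myf5 (9.38 and then 8.04) were lower at E12.5, the others higher. The sum of 8 of 9 joint interzone markers, Wnt9a and Wnt4 among them, lay between 76.4 and 82.1 and then between 142.8 and 156.4. For 15 of 16 cartilage markers the ranges were 190.4 to 269.7 and 342.3 to 433.4, and for 6 of 9 macrophage markers 28.3 to 34.2 and 44.5 to 55.0. Surface ectoderm markers (12 of 12) lay between 161.1 and 191.9 and then between 206.1 and 213.0. Of these, Krt5, Krt14, Krt15, Trp63, Epcam, Perp and Wnt7a had higher means in E12.5 than in E11.5 controls. Means of Fgf8 (14.9 and then 7.33 RPKM), Krt8, Krt18, Cdh1 and Sp8 were lower. Nerve markers (3 of 6) lay between 25.1 and 28.8 and then between 43.3 and 46.3. Tendon and connective tissue markers (8 of 9) went from 254.1 to 269.3 up to 285.2 to 309.4. Within that list, the means in E11.5 and E12.5 controls differed in direction. Higher at E12.5 were Dcn (6.73 and then 24.7 RPKM), Lum (19.8 and 43.7), Mkx (11.3 and 20.1) and Col1a1 (30.4 and 31.7). Lower at E12.5 were Scx (41.5 and then 38.0), Col1a2 (46.4 and 39.1), Col3a1 (67.4 and 62.0) and Tcf4 (36.6 and 34.6). Tcf4 is a different gene from Tcf7l2 of the WNT lists, and its use as a connective tissue marker was not tested. Endothelial markers (8 of 8) went from 125.8 to 135.4 up to 140.4 to 147.5. The other two sums were lower at E12.5: limb mesenchyme lay between 382.6 and 403.8 and then between 342.8 and 350.1, and erythroid (15 of 15) between 864.3 and 967.3 and then between 671.4 and 720.0. None of these markers was listed at 0 in any library except Matn1, a late cartilage matrix gene. The part of cell composition in the stage differences was not tested.

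Sfrp2 was the antagonist with the lowest adjusted p in both mutant comparisons, without passing in either. At E11.5, 0 of 7 antagonists were called between Sox9null and control, where 0.0543% of all genes were called; at an unadjusted p under 0.05 there were 2 of 7 against 2.82% of all genes. At E12.5, 0 of 7 were called between Sox9cKO and control, where 0.194% of all genes were called, with 3 of 7 against 5.41% at an unadjusted p under 0.05. Because the 7 were chosen with earlier results of these data known, these counts describe them and are not a test. The median log2 difference of the 7 was -0.07 at E11.5 and -0.06 at E12.5, against 0.01 over all genes at both.

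Sfrp2 (ENSMUSG00000027996, chromosome 3, 83766321 to 83774316) encodes a secreted frizzled-related protein. E11.5 controls had Sfrp2 at 42.9, 46.7 and 49.3 RPKM, while Sox9null libraries had it at 32.5, 37.2, 36.4 and 34.8. Each Sox9null library lay below each control, a separation seen in that direction for 1.06% of all genes. The log2 difference was -0.38 ± 0.07 (SE), a fold of 0.766, with a limma adjusted p of 0.0939 and an exact two-sided permutation p of 0.0571, the smallest that 35 splits allow. Within the library sets it was -0.36 (4 libraries) and -0.42 (3 libraries). When the fit also held the library set, the adjusted p was 0.0271, and over all 24 alternatives it ran from 0.0271 to 0.762.

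At E12.5, Sfrp2 measured 60.5, 59.7 and 64.5 RPKM in controls and 51.4, 47.5 and 44.9 in Sox9cKO. Again the groups did not overlap, as for 8.50% of all genes in that direction. The log2 difference was -0.36 ± 0.07 (SE), with a limma adjusted p of 0.0866 (0.0349 to 0.47 over the alternatives) and an exact permutation p of 0.1, the smallest that 20 splits allow. The difference between the effects at the stages was 0.03 (95% interval -0.18 to 0.24), and 0 of 7 antagonists passed for that difference in limma, where 0.0311% of all genes passed; 1 of 7 had an unadjusted p under 0.05, against 3.05% of all genes. Sfrp2 also rose with stage, by 0.40 ± 0.07 in controls (adjusted p = 0.00275) and by 0.43 ± 0.07 in mutants (adjusted p = 0.00301). Its order of means was therefore Sox9null 35.2, E11.5 controls 46.3, Sox9cKO 48.0 and E12.5 controls 61.6 RPKM, and the middle pair overlapped.

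**Figure D3:**
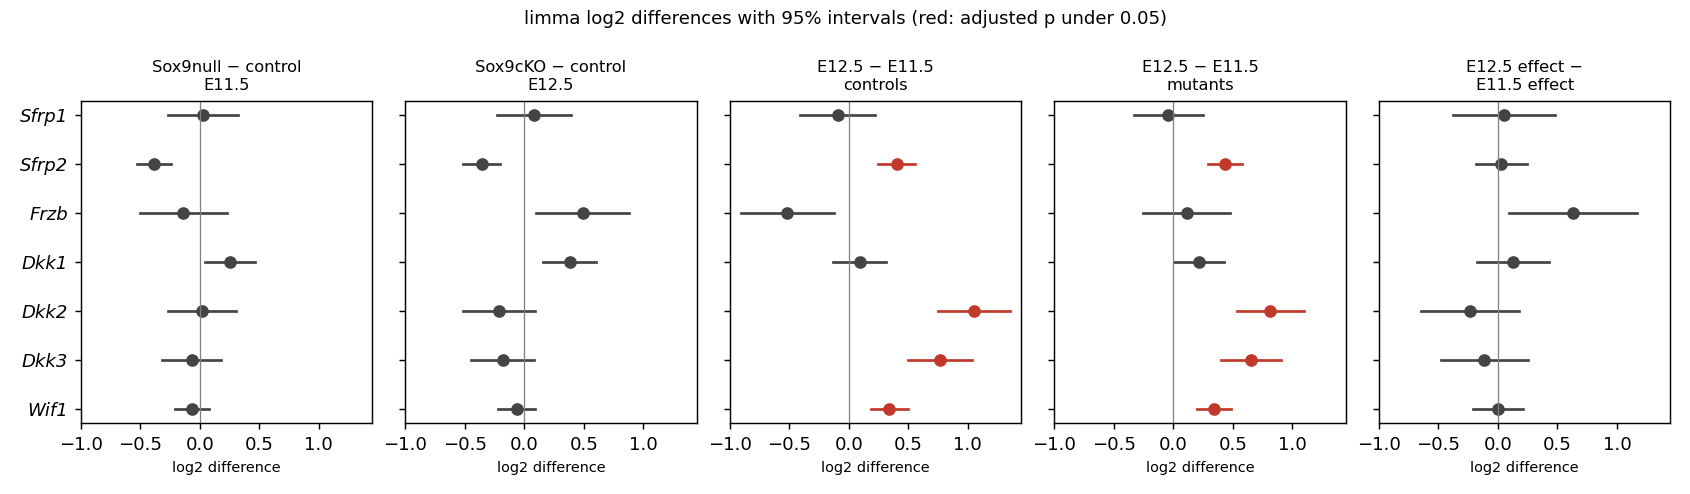
limma log2 differences (horizontal axis, log2(RPKM + 1) scale) with 95% intervals for the 7 genes in the 5 comparisons, red where the adjusted p was under 0.05. Dkk2, Dkk3, Sfrp2 and Wif1 are red in both stage comparisons, and no gene is red in the mutant comparisons or in their difference.

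The genes whose levels were most like that of Sfrp2 over the 13 libraries (Pearson r of log2(RPKM + 1), of 11345 genes compared) were Enpp2, Fzd9 and Col9a2, at r = 0.985, 0.982 and 0.979. Enpp2 encodes autotaxin, which makes lysophosphatidic acid, Fzd9 a Frizzled receptor and Col9a2 a chain of cartilage collagen IX. Col9a2 averaged 22.3, 6.66, 53.7 and 26.3 RPKM in E11.5 controls, Sox9null, E12.5 controls and Sox9cKO. These correlations are over libraries that share 4 groups and are given as a description. Beside the Sfrp2 values, the summed cartilage markers, which include Sox9 and Col9a2, ran from 190.4 to 269.7 RPKM in E11.5 controls and from 120.5 to 145.9 in Sox9null, then from 342.3 to 433.4 in E12.5 controls and from 185.3 to 255.7 in Sox9cKO. Summed erythroid markers moved the other way: at E12.5 they ran from 671.4 to 720.0 in controls and from 917.1 to 1128 in Sox9cKO, and at E11.5 from 864.3 to 967.3 in controls and from 885.7 to 1527 in Sox9null. At E11.5 the cartilage sum was the only one of the 10 without overlap between Sox9null and control. At E12.5 there were 7. Besides cartilage and erythroid, joint interzone markers lay between 142.8 and 156.4 in controls and between 97.7 and 117.9 in Sox9cKO, nerve markers between 43.3 and 46.3 and between 31.0 and 39.8, and surface ectoderm markers between 206.1 and 213.0 and between 178.6 and 203.9. Limb mesenchyme markers were higher in Sox9cKO, at 357.6 to 363.2 against 342.8 to 350.1, as were endothelial markers, at 147.9 to 156.9 against 140.4 to 147.5. The part of these tissues in the Sfrp2 difference was not tested.

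**Figure D4:**
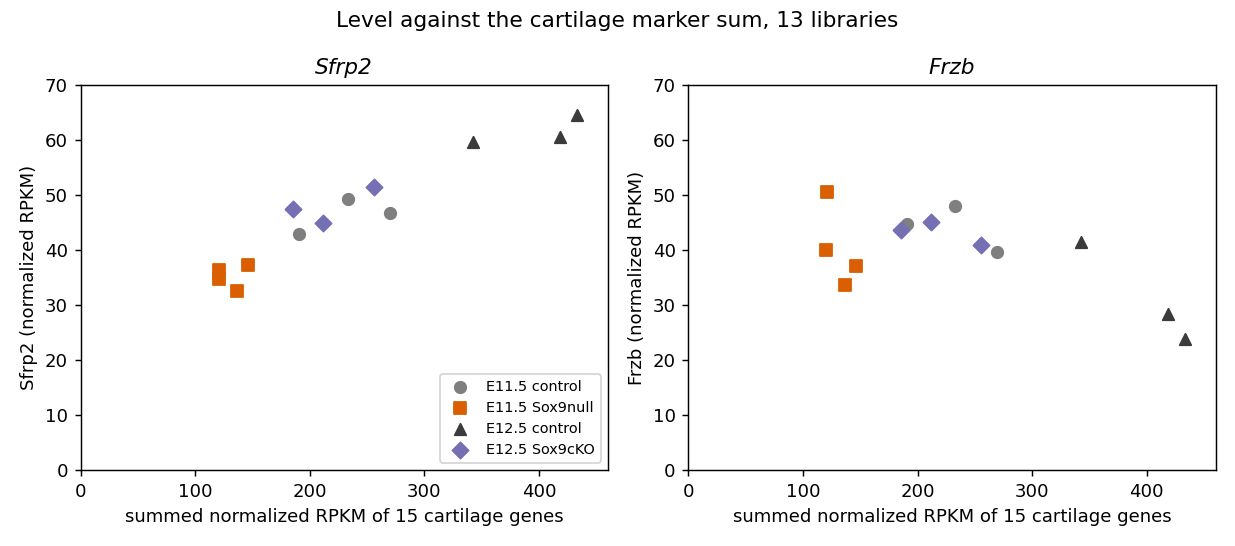
Sfrp2 (left) and Frzb (right) in normalized RPKM against the summed normalized RPKM of 15 cartilage markers, 1 point per library, shaped and coloured by group. Sfrp2 is lowest in the Sox9null libraries (sums of 120.5 to 145.9) and highest in E12.5 controls (342.3 to 433.4), while the lowest Frzb values are those of E12.5 controls 1 and 3.

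Frzb, named for its homology to Frizzled (ENSMUSG00000027004, chromosome 2, 80411970 to 80447625), had a different pattern from Sfrp2 of its own family. Its RPKM was 44.7, 39.7 and 48.0 in E11.5 controls and 33.7, 37.0, 50.5 and 40.003 in Sox9null. At E12.5 it was 28.5, 41.5 and 23.8 in controls and 40.9, 43.7 and 45.1 in Sox9cKO. E12.5 controls 1 and 3 were the lowest of the 13 libraries, while control 2 lay within the range of the Sox9cKO values. Over all genes, E12.5 control 2 had r = 0.95 with the mean of E11.5 controls, against 0.936 and 0.938 for controls 1 and 3. Sox9cKO 1, 2 and 3 had r = 0.951, 0.944 and 0.964 with the same mean, so the higher r was not particular to control 2. The cartilage marker sum of control 2 was 342.3 RPKM against 418.4 and 433.4 in controls 1 and 3. Its muscle marker sum was 161.8 against 196.2 and 204.9. The part of these in the Frzb values was not tested. The Sox9cKO difference was 0.49 ± 0.18 on the log2 scale (95% interval 0.10 to 0.88, limma adjusted p = 0.614), and at E11.5 it was -0.14 (-0.50 to 0.23, adjusted p = 1), or -0.06 without Sox9null 1 and -0.25 without Sox9null 3. The difference of these effects was 0.63 (95% interval 0.09 to 1.17), with an unadjusted p of 0.0249 and a limma adjusted p of 1.

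In controls, Frzb differed between the stages by -0.52 ± 0.18 (SE), with a limma adjusted p of 0.0582, just outside the threshold. Without E12.5 control 2 the value was -0.74 (adjusted p = 0.00902), without control 3 it was -0.35 (adjusted p = 0.205), and over the alternatives the adjusted p ran from 0.00902 to 0.205. Without the same library the Sox9cKO difference was 0.71 (adjusted p = 0.103), and without E12.5 control 3 it was 0.32 (adjusted p = 1). In mutants the stage difference was 0.11 (95% interval -0.25 to 0.48). The stage comparison in controls shares its libraries with the mutant comparison of each stage, as the stage comparison in mutants does, so these values are set side by side and are not separate evidence.

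The ratio of Frzb to Sfrp2 within a library shows the pair together. It was 1.04, 0.849 and 0.972 in E11.5 controls and 1.04, 0.995, 1.39 and 1.15 in Sox9null. In E12.5 controls it was 0.47, 0.696 and 0.369, and in Sox9cKO 0.795, 0.918 and 1.0. Sox9cKO ratios were all above the E12.5 control ratios, and 2 of the 3 lay within the range of E11.5 controls. The ratio holds the Sfrp2 and Frzb values given above and was added after they were seen, so it is not separate evidence. Over the 13 libraries, the correlation of Frzb with Sfrp2 was -0.42, and of deviations from the group means -0.06. The genes most like Frzb were Fam110a (r = 0.898), Crhbp (0.886) and Phactr3 (0.875), a looser likeness than for Sfrp2. Crhbp encodes the binding protein of corticotropin-releasing hormone.

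Sfrp1 (ENSMUSG00000031548, chromosome 8, 23411502 to 23449632), the third frizzled-related gene, overlapped in all groups. It ran from 20.8 to 28.9 RPKM in E11.5 controls, from 20.4 to 26.9 in Sox9null, from 19.04 to 26.8 in E12.5 controls and from 21.5 to 25.8 in Sox9cKO. Its differences were 0.03 (95% interval -0.26 to 0.32) at E11.5 and 0.08 (-0.23 to 0.40) at E12.5. The genes most like it, AI464131, Nr2f1 and Hoxb9, reached r values of 0.809, 0.794 and 0.793.

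Dkk1 (ENSMUSG00000024868, chromosome 19, 30545863 to 30549665), the classical blocker of LRP5 and LRP6, was the only one of the 7 genes with both mutant means above their control means and an unadjusted p under 0.05 at both stages. It measured 8.57, 6.54 and 7.66 RPKM in E11.5 controls and 8.80, 8.42, 9.79 and 9.87 in Sox9null, which overlapped. At E12.5 it measured 8.59, 8.47 and 7.32 in controls and 10.6, 12.0 and 10.1 in Sox9cKO, with every Sox9cKO library above every control, as for 1483 of all 12880 genes in that direction. The log2 difference was 0.25 ± 0.10 (SE) at E11.5 (unadjusted p = 0.021, limma adjusted p = 1; 0.16 without E11.5 control 2) and 0.38 ± 0.10 at E12.5 (unadjusted p = 0.00292, limma adjusted p = 0.272). When the fit also held the library set, which divides only the E11.5 libraries, the E12.5 value stayed at 0.38 with an adjusted p of 0.0401. That term changed the estimated spread and not the E12.5 difference. Over the alternatives the adjusted p of Dkk1 ran from 0.0401 to 1. Its stage differences were 0.09 (95% interval -0.13 to 0.31) in controls and 0.22 (0.01 to 0.43, adjusted p = 0.122) in mutants.

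Among the Dickkopfs, the ratio of Dkk1 to Dkk2 within a library was lower at E12.5 than at E11.5 in controls and in mutants, with no overlap. It was 0.498 to 0.721 in E11.5 controls and 0.233 to 0.354 in E12.5 controls, and 0.53 to 0.778 in Sox9null and 0.402 to 0.507 in Sox9cKO. The ratio holds the Dkk2 rise given above and was added after the values were seen, so it is not separate evidence. Dkk2 and Dkk3 went together over the 13 libraries (r = 0.95), as did Dkk2 and Wif1 (r = 0.96), while Dkk1 had r = 0.20 with Dkk2. Within groups, the deviations of Dkk2 had r = 0.60 with Dkk3 and 0.77 with Wif1. The genes most like Dkk2 were Dcn (decorin, a proteoglycan of connective tissue, r = 0.993), C1qtnf7 (0.99) and Tnnt1 (a troponin of slow muscle, 0.988). For Dkk3 they were Lrrc17 (0.991), Fkbp14 (0.99) and Dnajb4 (0.989). For Wif1 they were Lrrn1 (0.989), Clstn3 (0.988) and Abat (0.985), and for Dkk1 they were Ldb2 (0.897), Eml1 (0.892) and Ift52 (0.886).

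The partners of these proteins were described from fixed lists of 83 other WNT pathway genes, of which 62 were listed. Between mutant and control, 7 of all 12880 genes fell and 0 rose at E11.5, and 18 fell and 7 rose at E12.5. Of the 62, 1 fell at each stage and none rose. That gene was Fzd9, at 2.90 RPKM in E11.5 controls and 0.921 in Sox9null (log2 -1.01, limma adjusted p = 0.0144), and at 9.70 in E12.5 controls and 3.65 in Sox9cKO (log2 -1.20, adjusted p = 0.00384). Leaving out E11.5 control 2 or 3, or Sox9null 1, 2 or 3, took the E11.5 call away. No target or intracellular component passed in either mutant comparison. Axin2, a feedback inhibitor and target of beta-catenin, averaged 26.9, 26.4, 29.4 and 27.7 RPKM in E11.5 controls, Sox9null, E12.5 controls and Sox9cKO, and its differences were -0.03 (95% interval -0.15 to 0.09) and -0.09 (-0.22 to 0.04). Lef1, a factor that carries the signal to DNA, differed by -0.02 (-0.34 to 0.31) and -0.01 (-0.36 to 0.33), and Ctnnb1, which encodes beta-catenin, by -0.07 (-0.29 to 0.14) and 0.01 (-0.22 to 0.24).

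Of the receptors that Dickkopfs bind, Lrp6 averaged 34.4, 35.1, 32.9 and 32.1 RPKM and Lrp5 20.8, 19.7, 19.3 and 18.7 in E11.5 controls, Sox9null, E12.5 controls and Sox9cKO. Kremen2, a partner of Dickkopfs, rose with stage in controls from 12.2 to 18.5 RPKM (log2 0.57, limma adjusted p = 0.00372). In mutants it was at 13.4 and 15.1 RPKM (log2 0.15, adjusted p = 0.276). Kremen1 averaged 13.9, 14.2, 16.2 and 15.8 RPKM over the groups in the same order.

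Between the stages, 15 of the 62 rose and 4 fell in controls, and 9 rose and 3 fell in mutants. The shares over all genes were 16.5% higher and 5.19% lower in controls and 14.5% and 5.23% in mutants, so the mutant counts lay near that background. In controls the largest rises were Fzd9 (log2 1.46), Sostdc1 (0.84), Wnt9a (0.75), Fzd8 (0.68), Wnt4 (0.61) and Kremen2, and Igfbp4 (-0.51), Tcf7 (-0.46), Ctnnb1 (-0.40) and Csnk1a1 (-0.15) fell. Sostdc1, a further secreted inhibitor that acts on WNT and BMP signalling, went from 11.9 to 22.2 RPKM in controls (limma adjusted p = 0.00119) and from 11.9 to 16.9 in mutants (adjusted p = 0.0165). Wnt9a and Wnt4 are ligands of forming joints. In mutants the largest rises were Fzd9 (1.27), Rspo3 (0.49), Fzd8 (0.48), Sostdc1 (0.47), Wnt11 (0.39) and Lgr4 (0.32), and Igfbp4 (-0.37), Tcf7 (-0.37) and Ctnnb1 (-0.32) fell. Igfbp4, whose product binds insulin-like growth factors and can also block WNT signalling, went from 64.6 to 45.0 RPKM in controls.

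The 12 listed genes for WNT ligands and their secretion, Porcn and Wls among them, had no call in either mutant comparison. At E12.5, all 12 were below 0 in Sox9cKO, with a median log2 difference of -0.15 and a range from -0.38 to -0.02, against 5560 of 12880 genes below 0. At E11.5, 10 of the 12 were above 0, with a median of 0.10, against 7313 of 12880 genes above 0 and a median of 0.01. In controls, 12 of 12 were above 0 between the stages, 4 of them called higher, with a median of 0.29. Over all genes in that comparison, 7840 of 12880 were above 0 and 16.5% were called higher, with a median of 0.06. Surface ectoderm markers, which include the ligand Wnt7a, summed to 206.1 to 213.0 RPKM in E12.5 controls and 178.6 to 203.9 in Sox9cKO. At E11.5 their sum was 161.1 to 191.9 in controls and 171.0 to 230.5 in Sox9null. Joint interzone markers, which include the ligands Wnt4 and Wnt9a, summed to 142.8 to 156.4 RPKM in E12.5 controls and 97.7 to 117.9 in Sox9cKO. At E11.5 that sum was 76.4 to 82.1 in controls and 75.8 to 89.7 in Sox9null. Both sums thus share genes with the ligand list. The part of these tissues in the ligand values was not tested. The stage comparison shares its control libraries with the mutant comparisons, and the counts carry no test.

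In the authors' deposited table, the analysis of variance over the 4 groups gave an adjusted p of at most 0.05 for 5 of the 7 antagonists and for 2838 of all 12880 genes. In that table the values were 0.000731 for Sfrp2, 0.00251 for Dkk2, 0.0039 for Dkk3, 0.00648 for Wif1 and 0.0353 for Dkk1. The authors' deposited table gave 0.222 for Frzb and 0.939 for Sfrp1. One p over 4 groups does not show which groups differ, so these values do not single out the mutant differences.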

How the data were processed

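Per the labels, total RNA of limb buds was extracted with an RNeasy kit for Illumina libraries. CASAVA 1.8 and mm10 are named in the submitters' processing notes. The sources used here do not give the aligner, counting, strand use, between-library normalization or depth. The authors deposited normalized RPKM per library, per the file headers, for 12880 genes whose mean reached 3 in a group. The authors' deposited table also gives an ANOVA p-value per gene (FDR-adjusted).

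Values were analysed as log2(RPKM + 1) in limma 3.58.1 (R 4.3.3) with trend and robust estimation, 4 group means fitted to 13 libraries, and Benjamini-Hochberg adjustment over all genes; genes were called at an adjusted p under 0.05. A filter of 1 RPKM in 3 libraries removed 0 genes. The script was tested on simulated data. For single genes, libraries were permuted exactly, two-sided (scipy 1.17.1). The p-values measure spread between samples that the labels call biological replicates. Coordinates came from GENCODE M21 and 5′ sequences from RefSeq (GRCm38.p6).

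The members, the WNT gene lists and the marker lists were chosen with earlier results of these data known. The genes named besides the members were called genes of the WNT lists, at most the 6 largest each way, with Axin2, Lef1, Ctnnb1, Sox9, Col2a1 and Prrx1, and the 3 genes most like each member. Porcn, Wls, Wnt7a, Matn1, Tbx5, Tcf4 and Tcf7l2 are named as members of their lists. Lrp5, Lrp6, Kremen1 and the ratios of Frzb to Sfrp2 and of Dkk1 to Dkk2 were added after their values were seen. Alternatives were other pseudocounts, filters and scalings, a replicate block, library set or sex as a term, and leaving out each library.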

Additional observations from a re-analysis of the deposited data

Results flagged for a closer look

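In Sox9null, the highest Dkk2 library (replicate 2, 15.872 normalized RPKM) stood apart from the other 3, which lay between 12.4 and 12.9. Its gap to the nearest library was a larger share of the group's range than Dixon's critical value for 4 samples allows. Of the 7 antagonists tested this way in that group, Dkk2 was the 1 that stood out, and chance alone picks out about 1 group in 20. No difference between the stages in the mutant effect passed the test.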

How the results depend on the processing

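The rises of Dkk2, Dkk3, Sfrp2 and Wif1 with stage were called in controls and in mutants under all 24 alternatives. In controls the count of called antagonists was 4 or 5, the fifth being Frzb under median centring (-0.62), with library set (-0.61) or sex (-0.65) as a term, and without E12.5 control 2, Sox9null 1 or Sox9null 3. With the library set as a term the E12.5 libraries were counted with the set of 4. The term therefore left the E12.5 differences between mutant and control as they were and changed only the spread. The sets were drawn from the same expression values. The E11.5 count of antagonists was 1 instead of 0 with median centring and with the library set (Sfrp2 in both). The E12.5 count was 1 with quantile normalization (Sfrp2) and 2 with the library set (Sfrp2 and Dkk1). No other alternative called an antagonist between mutant and control.

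The E11.5 count of other WNT genes, 1 in the reported fit, was 0 with only the groups compared and 0 with the replicate block, and leaving out 1 library gave 0 to 1. Their count between stages in mutants, 12 as reported, was 7 with only the groups compared, 22 with the library set, and 6 to 13 when 1 library was left out, lowest without Sox9cKO replicate 2. The difference of effects uses all 4 groups, so a fit of only the groups compared was not run for it. The causes were not tested.

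Some differences near 0 turned sign. Median centring gave Dkk2 -0.0043 at E11.5 and Dkk1 -0.0098 between stages in controls. Quantile normalization gave Dkk1 -0.0595 for the latter, and -0.10 for Sfrp2 and -0.015 for Wif1 in the difference of effects. The sex term gave Dkk2 -0.00071 at E11.5, and -0.012 for Sfrp2 and -0.065 for Wif1 in the difference of effects. The library set gave Frzb -0.034 between stages in mutants. Leaving out 1 library at a time gave these ranges. At E11.5 they were -0.065 to 0.16 for Sfrp1, -0.058 to 0.090 for Dkk2 and -0.13 to 0.034 for Dkk3. At E12.5 they were -0.027 to 0.21 for Sfrp1 and -0.099 to 0.0040 for Wif1. For the difference of effects they were -0.078 to 0.18 for Sfrp1, -0.021 to 0.082 for Sfrp2 and -0.054 to 0.069 for Wif1. Between stages Sfrp1 ran from -0.22 to 0.037 in controls and from -0.12 to 0.026 in mutants.

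The labels tie the replicate numbers to no litter or animal across groups. Deviations of same-numbered libraries had r from -0.435 to 0.635 at E11.5 and from -0.117 to 0.169 at E12.5. The E11.5 values followed the library sets, so they cannot tell whether samples were paired. With the replicate block the counts of called antagonists stayed at 0 at both stages and 4 between stages in controls and in mutants, and Wif1 in the difference of effects was -0.019. Median centring moved the median of all genes between the stages in controls from 0.0601 to -0.0407, a shift smaller than the called rises. Without known depth, the precision of a single value cannot be given.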
